A study of Mus musculus with 72 samples.

Results

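The hypothalamus of nursing dams 10 days after birth (PP10) was compared with the hypothalamus of virgin females. The comparison used every hypothalamus library that the sample labels place at PP10 or in the virgin group, which was 6 of the 72 libraries of the study, 3 from PP10 dams and 3 from virgins, each from a different mouse. All animals were female C57BL/6J mice, an inbred strain, bought at 8 weeks and fed standard chow. The PP10 dams were nulliparous before they were bred in trios with C57BL/6J males, and they were nursing their pups when the tissue was taken. The virgins were of like age and at random stages of the estrous cycle. The other 12 hypothalamus libraries came from 3 dams each in late pregnancy, at PC14 and PC16 (PC is days after conception), and at postpartum days 1 and 3 (PP1 and PP3), and each mouse also gave hippocampus, neocortex and cerebellum. Pregnancy, birth, nursing and contact with pups came together in the dams and cannot be told apart in the comparison with virgins. The mice are called PP10 mice 1 to 3 and virgin mice 1 to 3 below, and values are given in that order.

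The hypothalamus sets hormone release from the pituitary, feeding, body temperature, sleep and parental behavior. In a nursing dam, suckling drives the release of prolactin and oxytocin, dopamine neurons of the hypothalamus hold prolactin back through the D2 receptor in the pituitary, and food intake climbs to meet the cost of milk. Prolactin acts in the brain through its receptor and the kinase JAK2, which activates STAT5, and STAT5 in turn switches on genes such as Cish and Socs2 that damp the same pathway.

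The 6 libraries held 12292323 to 13478192 counts each, and all 18 hypothalamus libraries 10519208 to 14208864. Expression levels are given as CPM, the counts of a gene scaled to the summed counts of the genes in the fit, with TMM factors, and a gene's CPM also grows with its length, so levels were compared between mice and not between genes. The markers of the hypothalamus were present in every library: Avp, which encodes vasopressin, had 789, 869 and 777 CPM at PP10, against 806, 909 and 773 CPM in virgins, and Pmch, which encodes melanin-concentrating hormone, had 261, 333 and 361 CPM at PP10, against 179, 221 and 239.6 CPM in virgins. Neither gene passed the test (adjusted p = 0.956 and 0.094). Markers of neighbouring tissue were not at even levels across the libraries. The summed level of 14 meningeal and fibroblast markers was 2232, 1881 and 619 CPM at PP10, against 4162, 3640 and 2214 CPM in virgins, and PP10 mouse 3 lay lowest. The summed level of 10 markers of the mammillary region, the caudal end of the hypothalamus, was 472, 514 and 511 CPM at PP10, against 391, 402 and 434 CPM in virgins, and the groups did not overlap. The summed level of 15 markers of mature oligodendrocytes was 6553, 6292 and 6985 CPM at PP10, against 4171, 6431 and 7731 CPM in virgins, with virgin mouse 1 lowest. In whole tissue, a change in the number of cells of a type and a change in the RNA of each cell cannot be told apart.

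Of 14123 genes tested, 857 (6.07%) were called at an adjusted p under 0.05, 546 of them higher at PP10 (3.87% of the genes tested) and 311 lower (2.2%). Adjusted p values are those of edgeR's quasi-likelihood test with Benjamini-Hochberg adjustment throughout. Most of the called differences were small, with a median size of 0.29 on the log2 scale, and 17 called genes were over 2-fold higher and 16 over 2-fold lower. The median log2 fold change of all genes tested was -0.0042. Of all genes tested, 27.9% had 3 PP10 values that lay all above or all below the 3 virgin values, and 850 of the 857 called genes did so. For each gene list given below, the share of its tested genes that was called in either direction stands beside the count, to be set against 6.07% over all genes, and in a list of few genes that share is coarse. The number of calls depended on which mice were included. It was 352, 606 and 161 without PP10 mouse 1, 2 and 3 and 248 and 364 without virgin mouse 1 and 2. Without virgin mouse 3 it was 679 higher and 373 lower, and it fell to 51 without PP10 mouse 3 and virgin mouse 1 together. Of the 164 called genes named by the rule given with the processing, 20 kept their call in every alternative in which they were tested, of 27, and none changed direction, and among those 20 were Npw, Ebf3, Stac2, Nr4a1, Dbp, Slc17a6, Kcnab2, Cyc1, Nefm, Nefh, Hsph1 and Sdf2l1.

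**Figure D1:**
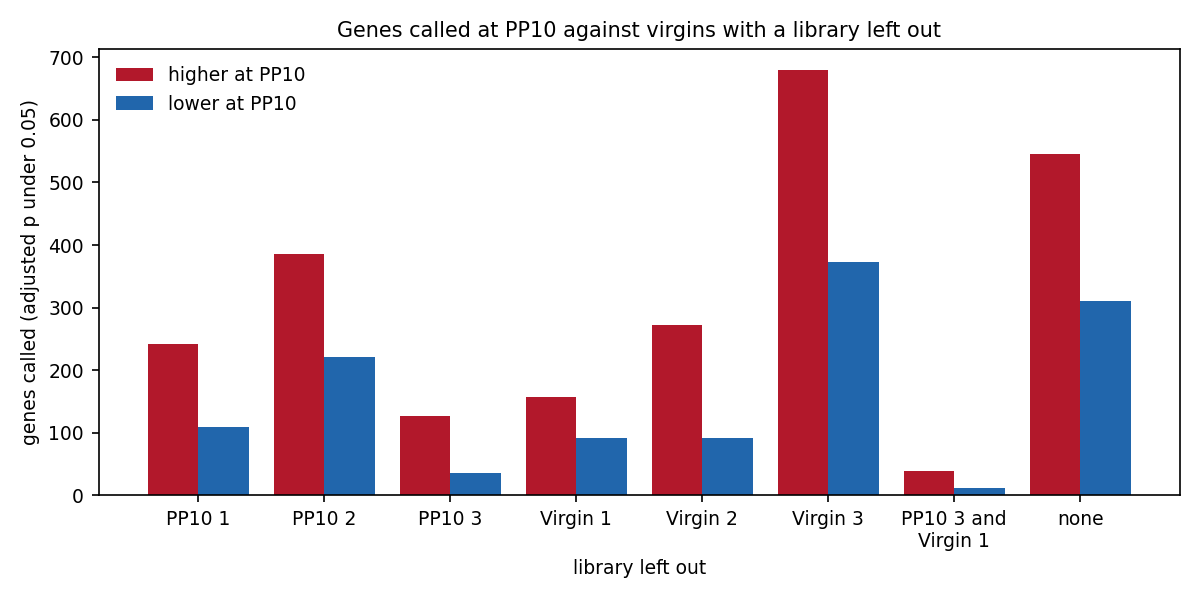
Number of genes called at an adjusted p under 0.05 (y axis) for PP10 against virgins with the library or libraries named on the x axis left out; red bars count genes higher at PP10 and blue bars genes lower at PP10. Without PP10 mouse 3 the calls were 126 higher and 35 lower, without virgin mouse 3 they were 679 and 373, and with no library left out 546 and 311.

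Neuropeptide W, encoded by Npw on chromosome 17 (24657330 to 24658457, minus strand) of GRCm38, showed the largest rise among the genes tested. Npw had 4.36, 3.59 and 3.77 CPM at PP10, against 0, 0.159 and 0 CPM in virgins, and the 3 dams lay above all virgins. The log2 fold change was 5.98 ± 0.53 SE, adjusted p = 2.04e-05. The dams held 151 reads of Npw in all against 2 in the virgins, so the fitted log2 fold change depends on the prior count of the fit and ran from 5.43 to 8.63 over the alternatives. The ratio of summed counts was 74.8, with an exact 95% counting interval of 20.4 to 623. Npbwr1, which encodes a receptor for the peptide, was expressed and did not pass the test, at 7.72, 7.26 and 7.23 CPM at PP10, against 8.27, 7.39 and 8.23 CPM in virgins (log2 fold change -0.11, adjusted p = 0.718), and Npb, which encodes the related ligand neuropeptide B, was near 1 CPM in both groups (log2 fold change -0.017, adjusted p = 0.988).

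Prlh, which encodes prolactin-releasing peptide, went the other way. It had 0.153, 0.156 and 0.236 CPM at PP10, against 2.14, 2.07 and 0.741 CPM in virgins, and every dam lay below every virgin, with virgin mouse 3 nearest to the dams. The log2 fold change was -3.13 ± 0.58 SE, adjusted p = 0.00612, and the call was lost only without PP10 mouse 3 and virgin mouse 1 together (adjusted p = 0.0998). The counts behind it were few, 7 in the dams and 64 in the virgins. Its receptor gene Prlhr had 1.6, 2.42 and 2.04 CPM at PP10, against 3.76, 4.05 and 2.55 CPM in virgins and did not pass the test (log2 fold change -0.78, adjusted p = 0.0949). Of the 23 tested genes of a list of prolactin-linked and lactation-linked peptides and receptors, 2 rose and 1 fell (13% called), with a median log2 fold change of -0.05. The other rise was Penk, the enkephalin precursor, at 139, 134 and 127 CPM at PP10, against 99.5, 113 and 101 CPM in virgins (0.35 ± 0.079 SE, adjusted p = 0.0175), and its call was lost without PP10 mouse 1 or virgin mouse 1 (highest adjusted p 0.132).

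**Figure D2:**
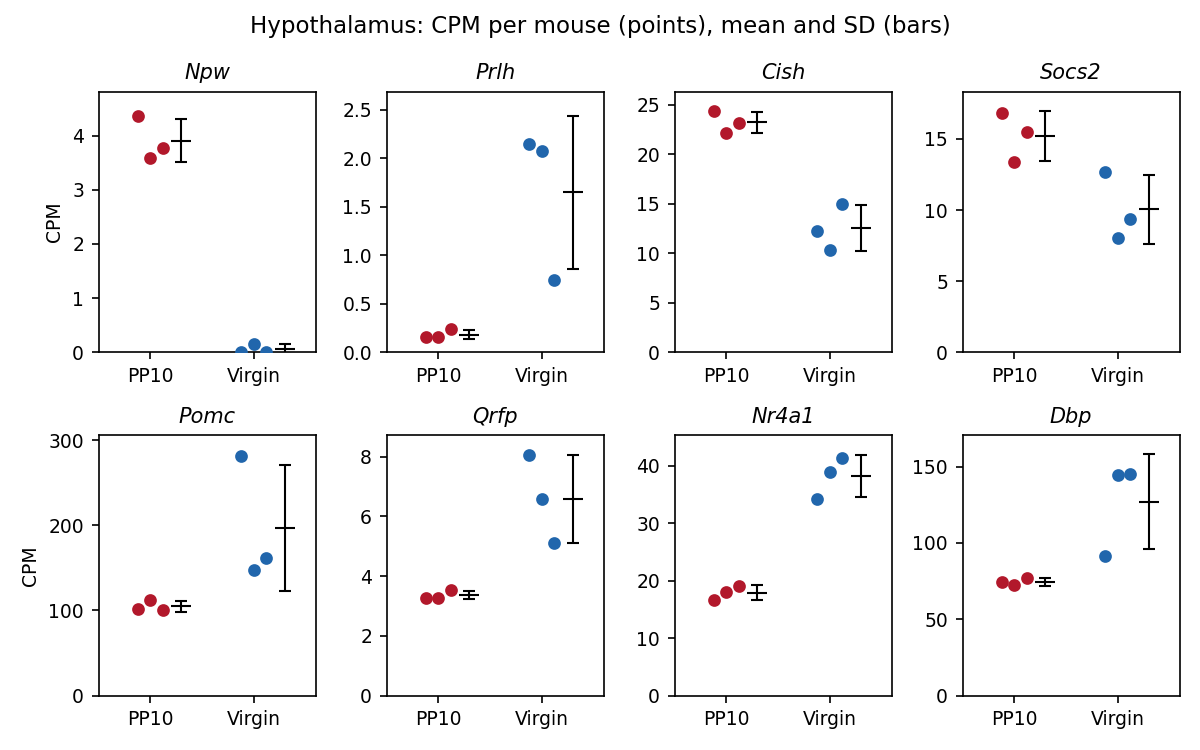
CPM (y axis) of 8 genes in the hypothalamus of each PP10 dam (red, left) and each virgin (blue, right); black bars give the mean and SD of 3 mice. The points of the groups do not overlap in any panel, and Npw sits between 3.59 and 4.36 CPM in the dams and at or below 0.159 CPM in the virgins.

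Downstream of the prolactin receptor, the inhibitors Cish and Socs2 rose. Cish had 24.3, 22.2 and 23.1 CPM at PP10, against 12.2, 10.3 and 15 CPM in virgins, a log2 fold change of 0.89 ± 0.14 SE, adjusted p = 0.00328, and the lowest dam lay well above the highest virgin. Socs2 had 16.8, 13.3 and 15.5 CPM at PP10, against 12.7, 8.03 and 9.38 CPM in virgins (0.60 ± 0.15 SE, adjusted p = 0.0247), with virgin mouse 1 close to the dams, and its call was lost without PP10 mouse 1 or 3 or virgin mouse 2 or 3 (highest adjusted p 0.103). They were the 2 called genes among 19 tested (10.5%) of a JAK-STAT list whose median was -0.09. Of the rest, Socs3 had a log2 fold change of 0.32 (adjusted p = 0.276), and the transducers Stat5a and Stat5b had -0.18 (adjusted p = 0.406) and -0.074 (adjusted p = 0.481). Prlr, the prolactin receptor itself, had 21.2, 23.5 and 22.2 CPM at PP10, against 29.7, 28.5 and 23.5 CPM in virgins, lower in all dams but past no threshold in the test of all genes (-0.29 ± 0.10 SE, adjusted p = 0.0966).

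Prl and Gh, which encode prolactin and growth hormone and are made mainly in the pituitary, were too low for the expression filter in the comparison with virgins and were not tested there. Prl had 4.05, 3.59 and 0 CPM at PP10, against 0, 0.0795 and 0 CPM in virgins, and Gh had 2.45, 1.72 and 0.0786 CPM at PP10, against 0, 0 and 0 CPM in virgins. By summed counts Prl had 99 in the dams and 1 in the virgins, and Gh 55 and 0. In PP10 mouse 3 both were at or near 0, as in the virgins. Of the other pituitary markers, Cga, the shared subunit of the glycoprotein hormones, had 0.917, 0 and 0 CPM at PP10, against 22.9, 10.7 and 5.02 CPM in virgins, and Pitx1, a pituitary transcription factor, had 1.38, 0 and 0 CPM at PP10, against 11.8, 7.95 and 5.93 CPM in virgins. Those values were lower in every dam than in every virgin, opposite to Prl and Gh in PP10 mice 1 and 2, and neither passed the test (adjusted p = 0.0512 and 0.0605). The fitted log2 fold change of Cga was -5.34. Over the 13 pituitary markers matched in the files the summed level was 500.1, 517 and 554 CPM at PP10, against 735, 663 and 601 CPM in virgins, of which Dlk1 and Chga, which the hypothalamus also expresses, made up most. Of the 5 tested, Dlk1 alone was called (20%).

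Of 34 tested feeding peptides and receptors, 4 rose and 4 fell (23.5% called, median log2 fold change -0.0082). Among the peptides, Pomc, the precursor of the appetite-lowering melanocortins, had 102, 113 and 100.0 CPM at PP10, against 282, 148 and 162 CPM in virgins and a log2 fold change of -0.91 ± 0.23 SE, adjusted p = 0.0271. Virgin mouse 1 stood far above the other virgins for Pomc, as it did for the pituitary markers Cga and Pitx1 but not for Prl and Gh, which were at 0 in that mouse. Pomc is a pituitary gene too, and the part of the pituitary in this difference was not tested. The call for Pomc was lost without any one of the PP10 mice or without virgin mouse 1 (log2 fold changes of -0.53 to -1.08 over the alternatives, highest adjusted p 0.33). Qrfp, which encodes a feeding peptide of the RFamide family, had 3.29, 3.28 and 3.54 CPM at PP10, against 8.04, 6.60 and 5.10 CPM in virgins (-0.97 ± 0.25 SE, adjusted p = 0.0326), and Sst, which encodes somatostatin, had 196, 213 and 200.2 CPM at PP10, against 290.2, 228 and 244 CPM in virgins (-0.32 ± 0.088 SE, adjusted p = 0.037). The call for Qrfp was lost without any one PP10 mouse or virgin mouse 1 or 2 (highest adjusted p over the alternatives 0.267). That for Sst was lost without any one PP10 mouse or virgin mouse 1 (highest adjusted p over the alternatives 0.358). Insr, the insulin receptor, was the last of those that fell, with a log2 fold change of -0.25 (adjusted p = 0.032). Receptors made up the genes that rose. They were Crhr1 for corticotropin-releasing hormone (log2 fold change 0.62, adjusted p = 0.0245), Mchr1 for melanin-concentrating hormone (0.26, adjusted p = 0.0265), and the neurotensin receptors Ntsr1 (0.57, adjusted p = 0.012) and Ntsr2 (0.27, adjusted p = 0.0118). Hcrt, which encodes the orexins, had 79.4, 58.0 and 108 CPM at PP10, against 26.1, 48.7 and 42.2 CPM in virgins, above the virgins in each dam, but its spread was wide and it did not pass the test (log2 fold change 1.07, adjusted p = 0.226). Agrp and Npy, which encode appetite-raising peptides, had log2 fold changes of -0.014 (adjusted p = 0.979) and -0.27 (adjusted p = 0.423). The feeding list had 2, 3 and 0 calls higher and 1, 0 and 0 lower without PP10 mouse 1, 2 and 3. It had 0, 2 and 6 higher and 1, 2 and 5 lower without virgin mouse 1, 2 and 3.

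The oxytocin gene did not pass the test. Oxt had 330.4, 345 and 384 CPM at PP10, against 319.5, 373 and 339 CPM in virgins (log2 fold change 0.037 ± 0.23 SE, adjusted p = 0.946), and the ranges of the groups overlapped. Oxtr, the oxytocin receptor, had 17.4, 16.9 and 18.9 CPM at PP10, against 17.1, 11.6 and 14.2 CPM in virgins (0.31, adjusted p = 0.143). Of 14 tested genes of that system 1 was called, Cpe, a carboxypeptidase that trims neuropeptide precursors, with a log2 fold change of 0.14 (adjusted p = 0.0496). That is 7.14% of the list, near the share of all genes, and the call for Cpe was lost in 20 of 27 alternatives (highest adjusted p 0.273). Of 7 genes with earlier links to maternal behavior that the study discussed, 5 were tested and Prlh alone was called (20%).

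Transcription factors that pattern the hypothalamus in the embryo and stay on in adult cells were called in both directions. Of 42 tested, 5 rose and 6 fell (26.2% called), with a median log2 fold change of -0.15. Those that rose included genes of the mammillary marker list. Lmx1a had 7.34, 5.07 and 6.05 CPM at PP10, against 1.55, 1.19 and 2.14 CPM in virgins (1.92 ± 0.32 SE, adjusted p = 0.00399) and Barhl1 had 8.94, 6.01 and 9.51 CPM at PP10, against 3.62, 2.15 and 2.96 CPM in virgins (1.48 ± 0.26 SE, adjusted p = 0.00516). Foxb1, the marker of the mammillary body, had 52.7, 64.2 and 51.4 CPM at PP10, against 13.6, 30.6 and 44.7 CPM in virgins (0.93 ± 0.25 SE, adjusted p = 0.0346), and its call was lost without any one PP10 mouse and without virgin mouse 1 or 2 (highest adjusted p 0.144). Pou3f3 had a log2 fold change of 0.34 (adjusted p = 0.0245). The dams lay close together for Foxb1, whereas the virgins spread widely, with mouse 1 lowest and mouse 3 highest.

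Six3, a gene of the early rostral forebrain, was among those that fell. It had 53.2, 58.1 and 57.5 CPM at PP10, against 85.4, 83.5 and 72.7 CPM in virgins (-0.52 ± 0.10 SE, adjusted p = 0.00921), and its antisense neighbour Six3os1, which the unstranded libraries cannot separate from it where their bodies overlap, had a log2 fold change of -0.65 (adjusted p = 0.00432). Rax, expressed by tanycytes, had 8.94, 7.96 and 8.02 CPM at PP10, against 17.1, 12.4 and 11.3 CPM in virgins (-0.71 ± 0.16 SE, adjusted p = 0.0189). Six6, Otp, Zic1 and Zic5 had log2 fold changes of -0.61 (adjusted p = 0.0425), -0.36 (adjusted p = 0.0336), -0.90 (adjusted p = 0.0444) and -1.19 (adjusted p = 0.0218). Zic1 was scattered among virgins, at 32.3, 28.5 and 32.7 CPM at PP10, against 35.1, 83.9 and 56.1 CPM in virgins. Without PP10 mouse 1, 2 or 3 the list had 3, 4 and 3 calls higher and 2, 1 and 1 calls lower, and without virgin mouse 1, 2 or 3 it had 3, 4 and 7 higher and 2, 2 and 7 lower. Beside this stand the summed levels of the mammillary markers given above, 472, 514 and 511 CPM at PP10, against 391, 402 and 434 CPM in virgins, of which 4 of 9 tested were called (44.4%), all higher, and those of the marker list of the whole hypothalamus, 2243, 2431 and 2418 CPM at PP10, against 2360, 2474 and 2286 CPM in virgins, of which 5 of 18 tested were called (27.8%), all lower. Where the caudal and rostral borders of each dissection lay was not recorded in the files, and its part in these differences was not tested.

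**Figure D3:**
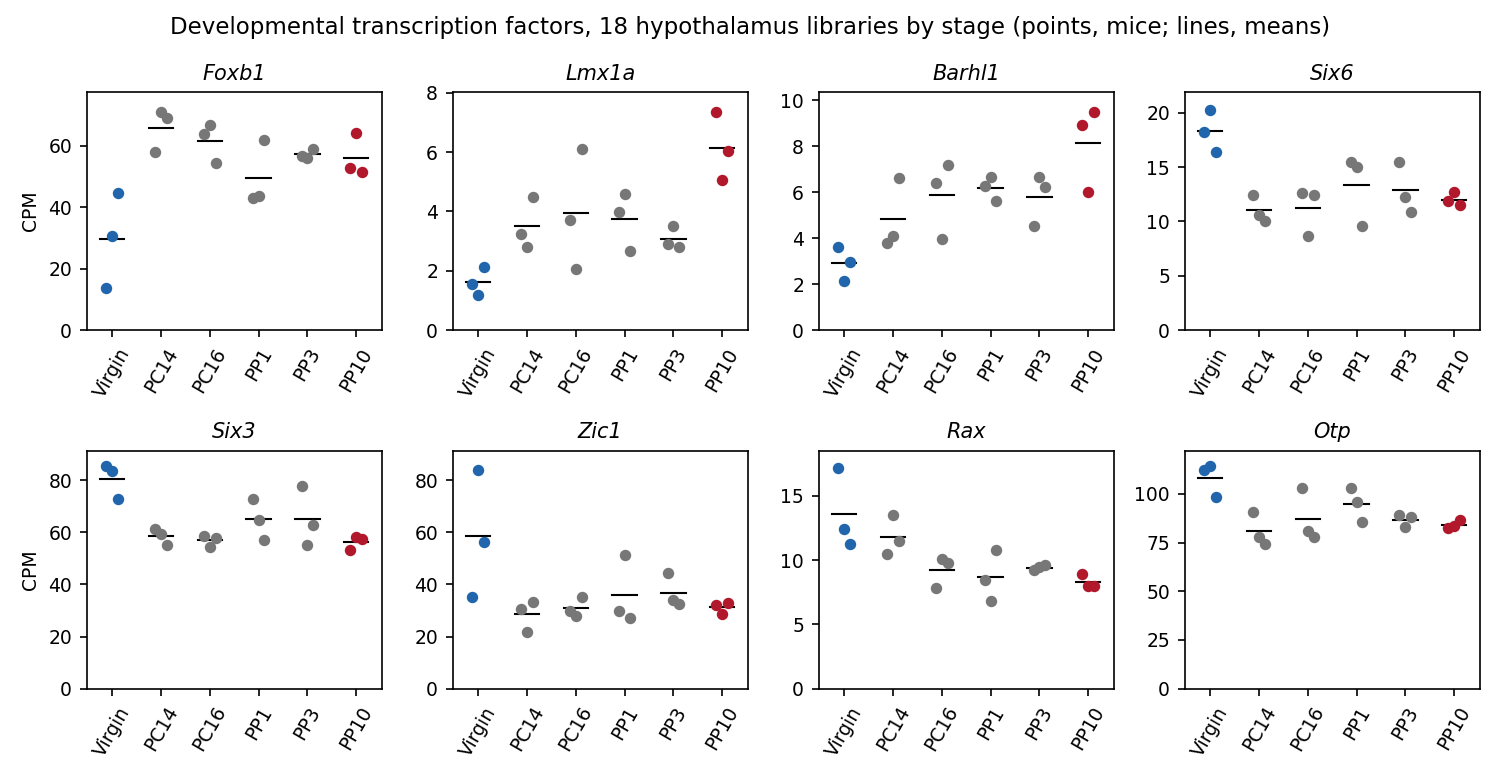
CPM (y axis) of 8 developmental transcription factors in the 18 hypothalamus libraries by stage (x axis); points are mice, lines are means of 3 mice, virgins are blue, PP10 red and the other dams grey. Lmx1a was at 5.07 to 7.34 CPM at PP10 and at 1.19 to 2.14 CPM in the virgins, and Six3 was at 53.2 to 58.1 CPM at PP10 and at or above 72.7 CPM in the virgins.

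Other genes with large rises had a like pattern among the virgins. Ebf3, a neuronal transcription factor, had 32.9, 26.9 and 28.8 CPM at PP10, against 11.6, 12.3 and 16.4 CPM in virgins (1.14 ± 0.17 SE, adjusted p = 0.00217), and Stac2, which encodes an adaptor of calcium channels, had 34.2, 35.5 and 35.9 CPM at PP10, against 11.7, 16.9 and 20.6 CPM in virgins (1.11 ± 0.13 SE, adjusted p = 0.000463). Cpne9, a copine, had 65.5, 72.3 and 63.4 CPM at PP10, against 7.90, 31.6 and 44.3 CPM in virgins and Kcnab3, a beta subunit of potassium channels, had 24.1, 24.1 and 25.5 CPM at PP10, against 4.35, 10.9 and 16.8 CPM in virgins, with log2 fold changes of 1.28 (adjusted p = 0.0257) and 1.22 (adjusted p = 0.0115). In all of these genes virgin mouse 1 was lowest and virgin mouse 3 highest of the virgins. Crhbp, whose product binds corticotropin-releasing hormone, had a log2 fold change of 1.09 (adjusted p = 0.044). The antisense gene C130021I20Rik (1.30), the pseudogene Gm6977 (1.43) and the host gene Mir670hg (1.08) were also among the 12 largest rises among genes of at least 1 CPM whose groups did not overlap. Mir670hg lost its call in 15 of 26 alternatives. By p value, Kcnab2, also a potassium channel beta subunit, Syndig1l and the channel gene Panx2 stood beside Npw and Stac2. Kcnab2 had 255, 241 and 251 CPM at PP10, against 177, 195 and 195 CPM in virgins (0.40 ± 0.046 SE, adjusted p = 0.000463), and Panx2 had 174, 174 and 189 CPM at PP10, against 100.4, 128 and 134 CPM in virgins (0.56 ± 0.071 SE, adjusted p = 0.000893).

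Of the called genes the largest fall was in Epcam, an epithelial adhesion gene, at 0.153, 0 and 0 CPM at PP10, against 2.73, 2.38 and 2.06 CPM in virgins (-5.29 ± 1.39 SE, adjusted p = 0.0333), with 2 counts in the dams and 92 in the virgins. Virgins were 46.4-fold higher by summed counts, with an exact 95% counting interval of 12.5 to 389. Krt8, an epithelial keratin, had 0.153, 0.703 and 0.550 CPM at PP10, against 1.55, 1.59 and 1.81 CPM in virgins (-1.80 ± 0.51 SE, adjusted p = 0.0451). Both calls were lost without single libraries. For Epcam these were any PP10 mouse and virgin mouse 1 or 2 (highest adjusted p 0.242). Krt8 lost its call in 16 of 26 alternatives (highest adjusted p 0.211). The pituitary markers Cga and Pitx1 were also lower in every dam. Prl and Gh, in contrast, were higher in PP10 mice 1 and 2 than in any virgin. Within the groups, Epcam had the same order of mice as Cga, highest in PP10 mouse 1 and virgin mouse 1 and lowest of the virgins in mouse 3. Krt8 ran the other way, highest of the virgins in mouse 3 and lowest of the dams in PP10 mouse 1. The part of attached pituitary tissue in these epithelial genes was not tested. The lincRNAs Gm12840 and Gm26809 fell in every dam, with 2.67, 2.26 and 2.20 CPM at PP10, against 10.5, 8.35 and 6.92 CPM in virgins and 39.4, 37.5 and 38.3 CPM at PP10, against 108, 83.2 and 71.0 CPM in virgins, and log2 fold changes of -1.85 (adjusted p = 0.00156) and -1.19 (adjusted p = 0.00195). Tcim, Mdfic and the unannotated gene ENSMUSG00000091251 had log2 fold changes of -1.71, -1.10 and -1.41. ENSMUSG00000091251 lost its call in 15 of 26 alternatives. Tob2, an antiproliferative gene, and BC067074 were among the 5 smallest p values of the genes that fell, at -0.58 (adjusted p = 0.00195) and -0.80 (adjusted p = 0.00328) in log2 fold change.

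Among the pan-neuronal markers, the calls were small and mostly upward. Of 11 tested, 6 rose and 1 fell (63.6% called, median log2 fold change 0.18). The neurofilament genes led. Nefh had 129, 116 and 113 CPM at PP10, against 78.6, 88.6 and 94.0 CPM in virgins (0.45 ± 0.058 SE, adjusted p = 0.00091), Nefm had 447, 423 and 426 CPM at PP10, against 265, 323 and 337 CPM in virgins (0.49 ± 0.065 SE, adjusted p = 0.00129) and Nefl a log2 fold change of 0.38 (adjusted p = 0.00562). Eno2, Snap25 and Uchl1 had 0.19 (adjusted p = 0.0155), 0.30 (adjusted p = 0.00612) and 0.16 (adjusted p = 0.0231), while Map2, of dendrites, fell by the test at -0.21 (adjusted p = 0.0279). With PP10 mouse 1, 2 or 3 left out, the pan-neuronal list had 6, 5 and 4 calls higher and 0, 1 and 0 calls lower, and without virgin mouse 1, 2 or 3 it had 4, 5 and 6 higher and 0, 0 and 1 lower. The summed level of these markers was 5794, 5820 and 5796 CPM at PP10, against 4837, 5181 and 5282 CPM in virgins.

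Of 35 tested genes of synaptic vesicles and release, 6 rose and none fell (17.1% called, median 0.06). Vamp1, of the vesicle membrane in fast-firing neurons, had 269, 258 and 308 CPM at PP10, against 133, 194 and 217 CPM in virgins (0.62 ± 0.13 SE, adjusted p = 0.011), and Syt2, the fast calcium sensor, had 62.1, 50.5 and 69.7 CPM at PP10, against 29.7, 44.4 and 38.1 CPM in virgins (0.70 ± 0.18 SE, adjusted p = 0.0271). Snap25, Rab3a and Syt7 had log2 fold changes of 0.30, 0.19 and 0.25. The synaptic list, without PP10 mouse 1, 2 or 3, had 4, 5 and 2 calls higher, and without virgin mouse 1, 2 or 3 it had 3, 6 and 7 higher. Of 62 tested potassium channel genes, 8 rose and 1 fell (14.5% called, median 0.03). Kcnc4, of the Kv3 family that lets neurons fire fast, had a log2 fold change of 0.31 (adjusted p = 0.0352), Kcnh2 0.28 (adjusted p = 0.0198), the inward rectifier Kcnj12 0.43 (adjusted p = 0.0189), Kcnk3 0.22 (adjusted p = 0.0452) and Kcnn2 0.44 (adjusted p = 0.00549). Kcnab2 and Kcnab3, given above, rose too. Kcnk3 lost its call in 13 of 27 alternatives. Kcnk2, a leak channel, fell, with 64.4, 69.2 and 65.0 CPM at PP10, against 88.6, 74.9 and 76.6 CPM in virgins (-0.27 ± 0.073 SE, adjusted p = 0.0353). The channel list, without PP10 mouse 1, 2 or 3, had 6, 8 and 3 calls higher and 0, 1 and 0 calls lower, and without virgin mouse 1, 2 or 3 it had 4, 6 and 11 higher and 0, 1 and 2 lower.

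Of 74 tested nuclear-encoded subunits of oxidative phosphorylation 16 rose (21.6%), with none lower and a median of 0.16, against -0.0042 over all genes. Cyc1, of complex III, had 144, 139 and 144 CPM at PP10, against 110.0, 118 and 117 CPM in virgins (0.31 ± 0.045 SE, adjusted p = 0.00195), and Cox6a1, of complex IV, had 275, 277 and 275 CPM at PP10, against 208, 221 and 252 CPM in virgins (0.28 ± 0.056 SE, adjusted p = 0.00966). The others were Uqcrc1 of complex III and Ndufa1, Ndufa7, Ndufb2, Ndufb5, Ndufb6, Ndufs7 and Ndufv1 of complex I. Ndufa4, Cox5a, Cox5b and Cox7b of complex IV and Atp5b and Atp5l of the ATP synthase rose too. Log2 fold changes of these others ran from 0.16 (Ndufv1) to 0.36 (Atp5l). The calls for Ndufa7 and Ndufb2 were each lost in 20 of 27 alternatives, that for Atp5l in 12 and that for Ndufv1 in 11. In 14 of the 16 virgin mouse 3 was the virgin nearest to the dams. When PP10 mouse 1, 2 or 3 was left out, the list had 8, 8 and 2 calls higher, and without virgin mouse 1, 2 or 3 it had 2, 4 and 35 higher. The 13 genes that mitochondria encode themselves had no call and a median of 0.03, and cytosolic ribosomal proteins 1 call of 79 tested (1.27%), Rpl11 at 0.33 (adjusted p = 0.0361).

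**Figure D4:**
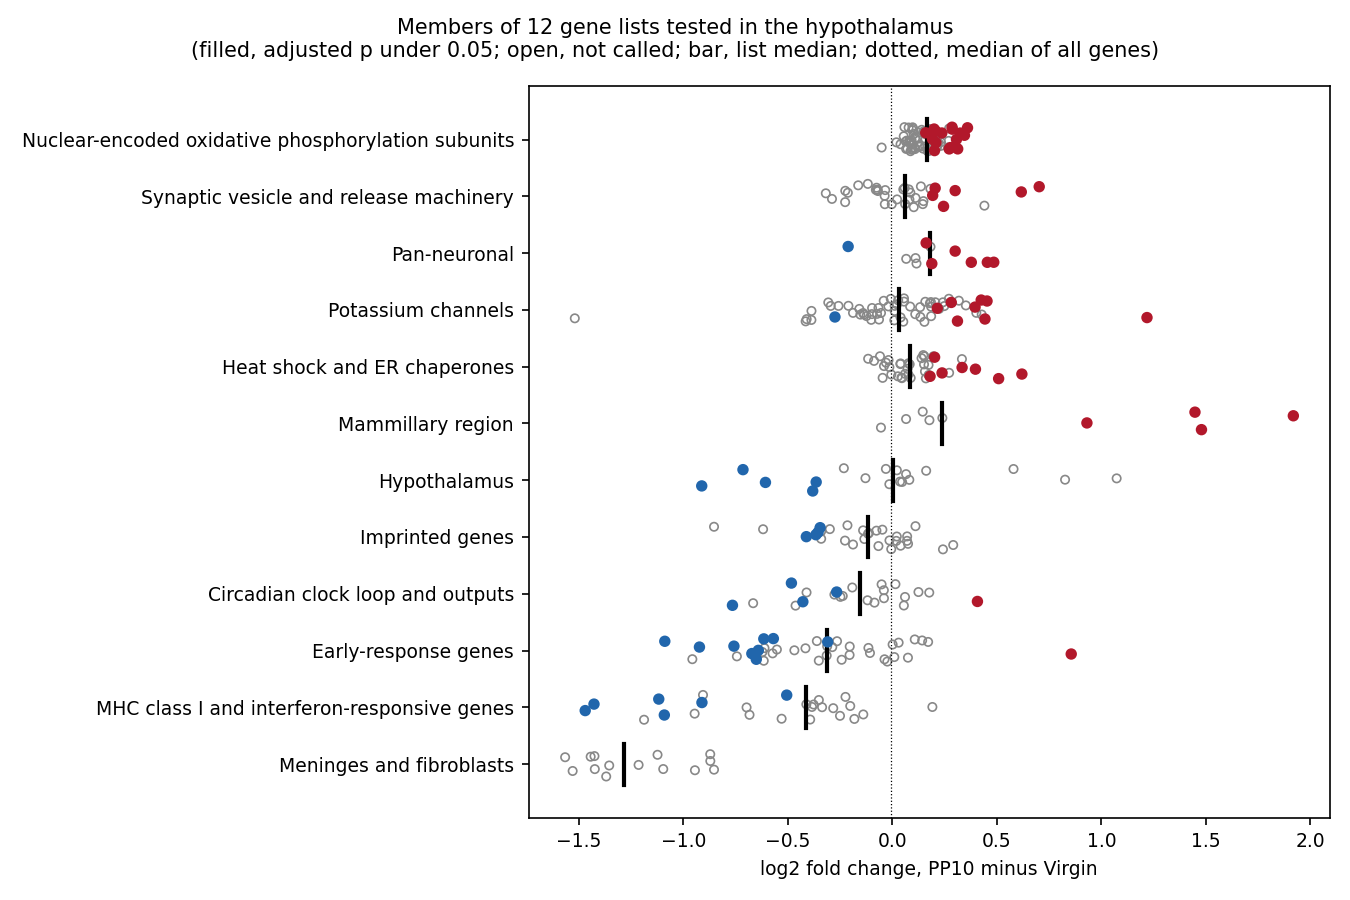
Log2 fold change of PP10 minus virgins (x axis) for the tested members of 12 gene lists (rows); filled points were called at an adjusted p under 0.05 (red higher, blue lower), open points were not, black bars are list medians and the dotted line is the median of all genes. The oxidative phosphorylation row lies right of the line with a median of 0.16, and the interferon row left of it with a median of -0.41.

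Transmitter genes changed singly. Slc17a6, the glutamate transporter that loads vesicles of most hypothalamic excitatory neurons, had 233, 241 and 226 CPM at PP10, against 172, 182 and 200.3 CPM in virgins (0.34 ± 0.054 SE, adjusted p = 0.00307), and its groups stood apart. Slc1a3, the glutamate transporter of astrocytes, had a log2 fold change of -0.23 (adjusted p = 0.0164). They were the 2 called of 13 tested genes of transmitter synthesis and transport (15.4%). Of 13 tested GABA-A receptor subunits 2 fell (15.4%): Gabre had 47.1, 47.3 and 42.7 CPM at PP10, against 86.6, 75.6 and 58.0 CPM in virgins (-0.69 ± 0.12 SE, adjusted p = 0.00516), and Gabrq had a log2 fold change of -0.34 (adjusted p = 0.0211). Without PP10 mouse 1 or 3 or virgin mouse 1, 1 GABA-A subunit was called. Among 16 tested glutamate receptor subunits 2 were called (12.5%), Grin2c at 0.35 (adjusted p = 0.039) and Grik3 at -0.22 (adjusted p = 0.0312), and neither without PP10 mouse 1 or 3 or virgin mouse 1. Of 14 tested genes of the dopamine system, 4 rose and none fell (28.6% called). They were Drd2, the D2 receptor, with 14.6, 11.4 and 14.2 CPM at PP10, against 7.82, 9.22 and 9.71 CPM in virgins (0.59 ± 0.13 SE, adjusted p = 0.018), and the transcription factors Nr4a2, Foxa1 and Lmx1b, which dopamine neurons of the midbrain share with the caudal hypothalamus, at log2 fold changes of 0.86 (adjusted p = 0.00617), 1.02 (adjusted p = 0.0155) and 0.86 (adjusted p = 0.0187). Th, the rate-limiting enzyme of dopamine synthesis, had 49.5, 34.1 and 38.4 CPM at PP10, against 36.9, 34.1 and 28.6 CPM in virgins and was not called (0.29, adjusted p = 0.325). Slc6a3, the dopamine transporter of midbrain neurons, had 33.9, 4.92 and 12.7 CPM at PP10, against 6.12, 5.64 and 4.12 CPM in virgins, high in PP10 mouse 1, and its part in the dopamine list was not tested. Dopamine genes had 1, 5 and 2 calls higher without PP10 mouse 1, 2 and 3, and 2, 2 and 4 higher without virgin mouse 1, 2 and 3. None of 8 tested serotonin receptors was called.

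Early-response genes are those that neurons switch on within minutes of stimulation. Of 39 tested, 9 fell and 1 rose (25.6% called), with a median log2 fold change of -0.31. Nr4a1, a nuclear receptor of that class, had 16.6, 18.1 and 19.1 CPM at PP10, against 34.2, 38.9 and 41.4 CPM in virgins (-1.09 ± 0.18 SE, adjusted p = 0.00352). Junb had 22.9, 33.7 and 25.2 CPM at PP10, against 48.6, 48.6 and 58.0 CPM in virgins (-0.92 ± 0.19 SE, adjusted p = 0.0118), and Btg2 had 11.1, 12.1 and 10.1 CPM at PP10, against 18.1, 17.8 and 17.1 CPM in virgins (-0.67 ± 0.14 SE, adjusted p = 0.0115). The others that fell were Jun (-0.31, adjusted p = 0.0119), Egr4 (-0.64, adjusted p = 0.0333), the phosphatase gene Dusp1 (-0.57, adjusted p = 0.0177), Klf4 (-0.76, adjusted p = 0.00967), Klf10 (-0.65, adjusted p = 0.0214) and Sik1 (-0.61, adjusted p = 0.0184), given as log2 fold changes. Fos had 14.9, 17.9 and 13.6 CPM at PP10, against 25.3, 26.4 and 38.4 CPM in virgins, and its difference of -0.96 did not pass the test (adjusted p = 0.082). Nr4a2 went against the list, with 22.6, 20.3 and 23.1 CPM at PP10, against 12.4, 10.2 and 13.9 CPM in virgins. Leaving out PP10 mouse 1, 2 or 3, the early-response list had 1, 1 and 1 calls higher and 4, 8 and 1 calls lower, and without virgin mouse 1, 2 or 3 it had 1, 1 and 1 higher and 8, 6 and 8 lower.

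The cyclic AMP response element is a known control sequence of this class of gene, and its full form TGACGTCA was searched on either strand of the 250 bases before each gene's start in RefSeq (GRCm38.p6). It lay in 2 of the 7 genes that fell and have a promoter in that table, Btg2 and Dusp1, and in 1.55% of all 32851 such windows. Both windows are shown because they carry that element, in capitals, and they are written 5′ to 3′ on the strand of the gene, Btg2 at chr1:134079156-134079405 (minus strand) and Dusp1 at chr17:26508473-26508722 (minus strand).
Btg2: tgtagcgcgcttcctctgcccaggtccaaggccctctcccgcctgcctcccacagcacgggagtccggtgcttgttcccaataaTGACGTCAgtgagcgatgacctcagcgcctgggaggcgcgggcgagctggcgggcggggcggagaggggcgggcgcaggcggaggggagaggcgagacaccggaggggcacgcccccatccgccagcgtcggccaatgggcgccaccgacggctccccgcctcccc
Dusp1: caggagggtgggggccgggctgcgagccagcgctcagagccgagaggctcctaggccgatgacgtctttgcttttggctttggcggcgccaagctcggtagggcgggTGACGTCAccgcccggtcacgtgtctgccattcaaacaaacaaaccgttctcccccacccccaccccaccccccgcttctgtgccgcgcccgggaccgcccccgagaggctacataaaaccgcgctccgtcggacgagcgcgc
The element starts 166 bases before the Btg2 start and 143 bases before the Dusp1 start. Btg2 was lower in every dam than in every virgin, and so was Dusp1, at 18.0, 16.9 and 18.6 CPM at PP10, against 23.2, 30.1 and 26.1 CPM in virgins. A match describes the sequence only, and no binding was measured.

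Of 22 tested genes of the circadian clock and its outputs, 4 fell and 1 rose (22.7% called, median -0.15). Dbp, a clock output and transcription factor, had 74.1, 72.4 and 77.3 CPM at PP10, against 91.1, 144 and 145 CPM in virgins (-0.76 ± 0.14 SE, adjusted p = 0.00544). Per1 and Per3, of the negative limb, had log2 fold changes of -0.48 (adjusted p = 0.0175) and -0.43 (adjusted p = 0.037), and Nr1d1, which encodes REV-ERBα, -0.27 (adjusted p = 0.0294). Npas2, of the positive limb, rose, with 9.25, 10.9 and 11.7 CPM at PP10, against 8.63, 7.87 and 7.49 CPM in virgins (0.41 ± 0.11 SE, adjusted p = 0.0313). The hour at which tissue was taken was not given in the sources used here, and its part was not tested. The clock list, without PP10 mouse 1, 2 or 3, had 1, 0 and 0 calls higher and 2, 3 and 1 calls lower, and without virgin mouse 1, 2 or 3 it had 0, 0 and 0 higher and 6, 2 and 2 lower. Genes that glucocorticoids induce ran the same way in 3 of 19 tested, Ddit4 (-0.47, adjusted p = 0.0457), Klf9 (-0.33, adjusted p = 0.0277) and Tiparp (-0.63, adjusted p = 0.0324), with none higher (15.8% called). The glucocorticoid list had 0, 1 and 0 calls lower without PP10 mouse 1, 2 and 3, and 5, 2 and 0 lower without virgin mouse 1, 2 and 3, and the call for Ddit4 was lost in 16 of 27 alternatives. Nr3c1, the glucocorticoid receptor, fell too, at 78.7, 81.5 and 77.2 CPM at PP10, against 99.7, 94.9 and 90.2 CPM in virgins (-0.26 ± 0.062 SE, adjusted p = 0.0213), and Fkbp4, a chaperone of steroid receptors, rose (0.22, adjusted p = 0.0357). Those were the 2 called of 16 tested steroid receptors and cofactors (12.5%), and neither was called without PP10 mouse 1 or 3 or virgin mouse 1 or 2. Esr1 and Pgr, receptors for estrogen and progesterone, had log2 fold changes of -0.11 (adjusted p = 0.61) and -0.047 (adjusted p = 0.802).

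Genes that interferon induces and genes of antigen presentation by MHC class I formed a list with calls in 1 direction. Of 25 tested, 6 fell and none rose (24% called), with a median of -0.41. A negative log2 fold change was found in 24 of the 25. Over all genes the median was -0.0042, so the signs were split near evenly there. The 25 genes were measured in the same 6 mice, so they are not 25 independent results. Ifit1, which binds foreign RNA, had 2.60, 4.06 and 2.20 CPM at PP10, against 9, 10.2 and 4.61 CPM in virgins (-1.43 ± 0.30 SE, adjusted p = 0.0119). Usp18, which holds interferon signaling back, had 0.841, 1.48 and 0.864 CPM at PP10, against 4.28, 3.02 and 1.48 CPM in virgins (-1.47 ± 0.39 SE, adjusted p = 0.0352), and Oasl2 had 5.73, 7.73 and 6.29 CPM at PP10, against 16.4, 17.2 and 8.31 CPM in virgins (-1.09 ± 0.28 SE, adjusted p = 0.0288). Gbp3, Bst2 and the peptide transporter gene Tap1 had log2 fold changes of -1.12 (adjusted p = 0.0311), -0.91 (adjusted p = 0.0459) and -0.50 (adjusted p = 0.0431). Bst2 lost its call in 15 of 27 alternatives. Virgin mouse 3 was the lowest virgin in all 6. In the interferon list, without PP10 mouse 1, 2 or 3, there were 0, 6 and 0 calls lower, and without virgin mouse 1, 2 or 3 it had 0, 0 and 10 lower.

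The interferon-stimulated response element, searched on either strand as GAAA, any 2 bases and GAAA in the same windows, lay in 3 of the 5 genes that fell and have a promoter in RefSeq (GRCm38.p6) and in 2.98% of all windows. The windows of Ifit1 (chr19:34640639-34640888, plus strand), Gbp3 (chr3:142559794-142560043, plus strand) and Bst2 (chr8:71537473-71537722, minus strand) are shown for that element, which stands in capitals, in reverse complement where it is read on the other strand.
Ifit1: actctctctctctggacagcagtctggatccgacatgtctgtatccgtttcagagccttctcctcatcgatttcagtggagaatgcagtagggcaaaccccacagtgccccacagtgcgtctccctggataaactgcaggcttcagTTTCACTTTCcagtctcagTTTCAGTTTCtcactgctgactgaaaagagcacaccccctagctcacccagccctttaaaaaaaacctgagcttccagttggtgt
Gbp3: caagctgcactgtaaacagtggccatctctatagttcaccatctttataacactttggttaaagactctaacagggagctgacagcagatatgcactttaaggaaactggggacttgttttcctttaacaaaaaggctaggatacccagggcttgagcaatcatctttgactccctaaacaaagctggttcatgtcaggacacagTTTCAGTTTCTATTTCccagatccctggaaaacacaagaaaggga
Bst2: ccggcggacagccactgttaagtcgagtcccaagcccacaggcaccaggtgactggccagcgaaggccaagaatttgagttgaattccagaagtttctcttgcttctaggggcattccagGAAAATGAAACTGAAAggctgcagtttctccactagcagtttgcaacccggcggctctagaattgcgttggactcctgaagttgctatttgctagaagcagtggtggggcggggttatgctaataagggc
Each window held 2 matches, which overlap in Gbp3 and in Bst2. The motif TTCNNNGAA, which STAT dimers bind, was searched in the same way, and it did not lie in the window of Cish and lay in 7.02% of all windows; Socs2 has no promoter in the table. No binding was measured, and a match says nothing of use in this tissue.

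Chaperones fold proteins and are induced by heat and other stress. Of 38 tested heat shock and endoplasmic reticulum chaperones, 7 rose and none fell (18.4% called, median 0.09). Sdf2l1, of the endoplasmic reticulum, had 34.5, 33.2 and 35 CPM at PP10, against 25.2, 22 and 24.9 CPM in virgins (0.51 ± 0.074 SE, adjusted p = 0.00199) and Hsph1 had 359, 366 and 373 CPM at PP10, against 316, 274 and 281 CPM in virgins (0.33 ± 0.062 SE, adjusted p = 0.00612). The inducible Hspa1a and Hspa1b, near-identical copies whose reads cannot be told apart with certainty, had log2 fold changes of 0.40 (adjusted p = 0.0213) and 0.62 (adjusted p = 0.0222), and Hspa8, Calr and Manf had 0.18 (adjusted p = 0.0367), 0.20 (adjusted p = 0.0184) and 0.24 (adjusted p = 0.0483). Manf lost its call in 14 of 27 alternatives. Rbm3 and Cirbp, RNA-binding genes induced by cold, both fell and had 32.4, 30.2 and 33.1 CPM at PP10, against 45.9, 43.6 and 36.3 CPM in virgins and 102, 94.1 and 83 CPM at PP10, against 118, 123 and 114 CPM in virgins, with log2 fold changes of -0.40 (adjusted p = 0.0312) and -0.35 (adjusted p = 0.0132). Of those cold-induced genes, none was called without PP10 mouse 3 or virgin mouse 2. Chaperones had 2, 5 and 2 calls higher without PP10 mouse 1, 2 and 3, and 4, 3 and 4 higher without virgin mouse 1, 2 and 3.

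Of 30 tested imprinted genes, 4 fell and none rose (13.3% called, median -0.11). Asb4, which is strong in the hypothalamus, had 41.1, 44.7 and 41.2 CPM at PP10, against 61.2, 54.1 and 53.5 CPM in virgins (-0.41 ± 0.077 SE, adjusted p = 0.0064), and Nnat, Zdbf2 and Dlk1 had log2 fold changes of -0.37 (adjusted p = 0.0231), -0.36 (adjusted p = 0.0119) and -0.35 (adjusted p = 0.0346). Imprinted genes had 3, 3 and 2 calls lower without PP10 mouse 1, 2 and 3, and 2, 2 and 4 lower without virgin mouse 1, 2 and 3. Of 14 tested genes of the insulin and insulin-like growth factor system, 2 fell (14.3%), Insr and the receptor substrate Irs4, which had 114, 120.5 and 104 CPM at PP10, against 177, 164 and 138 CPM in virgins (-0.50 ± 0.10 SE, adjusted p = 0.0066). Without PP10 mouse 3 neither was called. In the BMP and TGF-beta pathway, 5 of 40 fell (Bmp3, Tgfbr1, Smad5, Id4 and Ltbp4, with log2 fold changes of -0.83, -0.28, -0.22, -0.32 and -0.40) and 1 rose (15% called). The BMP list had 1, 1 and 1 calls higher and 1, 1 and 1 calls lower without PP10 mouse 1, 2 and 3, and 1, 1 and 2 higher and 1, 2 and 4 lower without virgin mouse 1, 2 and 3, and the call for Tgfbr1 was lost in 21 of 27 alternatives. Further lists had 1 or 2 calls, at shares no higher than the 6.07% of all genes. In the Wnt pathway 1 of 40 was called (2.5%), Fzd3 (-0.46, adjusted p = 0.0375), in cholesterol synthesis and uptake 1 of 29 (3.45%), Abca1 (-0.39, adjusted p = 0.0123), and in the extracellular matrix 2 of 39 (5.13%), Hapln4 higher (0.30, adjusted p = 0.0056) and Adamts1 lower (-0.58, adjusted p = 0.0481).

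Among glial markers, 3 of 15 astrocyte genes rose (Aldh1l1, Aldoc and Ntsr2, with 0.38, 0.20 and 0.27) and 2 fell (Slc1a3 and Sox9, with -0.23 and -0.33), so the list moved in no single direction (33.3% called). Astrocyte markers had 2, 1 and 0 calls higher and 1, 2 and 0 calls lower without PP10 mouse 1, 2 and 3, and 0, 2 and 4 higher and 1, 1 and 2 lower without virgin mouse 1, 2 and 3. Oligodendrocyte precursors had 1 call among 10 tested markers (10%, list median -0.067), Olig2, which rose (0.36, adjusted p = 0.0118). Endothelium had 1 among 13 (7.69%, list median -0.0089), Cldn5, which rose (0.54, adjusted p = 0.0407). Ependyma had 1 among 10 (10%, list median -0.25), Enkur, which fell (-0.50, adjusted p = 0.0487). The call for Enkur was lost in 19 of 27 alternatives and that for Cldn5 without any one of the 6 mice. The tanycyte markers summed to 213, 209.8 and 172 CPM at PP10, against 316, 251 and 224 CPM in virgins, with no overlap. Among 10 tested, 2 were called, both lower (20%). None of 14 microglial, 15 oligodendrocyte, 8 mural, 7 choroid plexus, 14 meningeal and 5 red blood cell markers tested was called. The red blood cell markers, in brains that were not perfused, summed to 304, 313 and 221 CPM at PP10, against 215, 174 and 177 CPM in virgins, higher in each dam. Markers of neighbouring forebrain were called too, and the share over all genes was 6.07%. Of 11 tested striatal markers 4 rose (36.4% called), Syndig1l, Pde1b, Penk and Drd2 (0.72, 0.34, 0.35 and 0.59), and the list summed to 516, 505 and 504 CPM at PP10, against 442, 447 and 431 CPM in virgins, with no overlap. Striatal markers had 2, 4 and 2 calls higher and 0, 0 and 0 calls lower without PP10 mouse 1, 2 and 3, and 2, 4 and 4 higher and 0, 0 and 1 lower without virgin mouse 1, 2 and 3. Of 7 tested markers of cortex and hippocampus, Nrn1 and Lamp5 rose (0.81 and 0.58) and Rasgrf2 fell (-0.25), which is 42.9%, and the list summed to 895, 941 and 916 CPM at PP10, against 1005, 921 and 949 CPM in virgins. Cortical markers had 1, 0 and 0 calls higher and 0, 1 and 0 calls lower without PP10 mouse 1, 2 and 3, and 2, 0 and 2 higher and 0, 0 and 1 lower without virgin mouse 1, 2 and 3. Of 10 tested thalamic markers Vav3 alone was called (10%), and it rose (0.71). What part neighbouring tissue had in these calls was not tested.

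To ask how PP10 differed from the mean of the other dams, the 3 PP10 libraries were compared with the 12 libraries of PC14, PC16, PP1 and PP3. That test held no virgin and shared the PP10 libraries with the one above. Of 14298 genes, 1 was called, which is 0.00699% in either direction, 0.00699% higher and 0% lower, and 774 had an unadjusted p under 0.05 and a higher value at PP10, against 693 with a lower one. The gene was Npw, with a log2 difference of 3.66 ± 0.29 SE, adjusted p = 4.38e-06. By stage, Npw was 0 to 0.159 CPM in virgins, 0.0809, 0 and 0.143 CPM at PC14, 0, 0.0766 and 0 CPM at PC16, 1.93, 1.76 and 1.25 CPM at PP1, 1.25, 2.42 and 1.72 CPM at PP3 and 4.36, 3.59 and 3.77 CPM at PP10. It was near 0 before birth, and all PP10 mice lay above all mice of PP1 and PP3. The mean of the other dams held the near-0 levels of PC14 and PC16, and PP10 against PP1 and PP3 alone was not tested. The call held without each of the 18 libraries in turn. DESeq2 gave Npw no adjusted p, since its independent filtering set the gene aside, and called 4 other genes. Because the counts before birth were so few, the fitted log2 difference depends on the prior count of the fit.

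The genes next in order did not pass the test. Cirbp and Mfge8 had log2 differences from the other dams of -0.31 (adjusted p = 0.262) and 0.23 (adjusted p = 0.262), Rps6kc1 0.20 (adjusted p = 0.262), and Vasn, Hps5, Hif3a and Kcne1l -0.33 (adjusted p = 0.339), -0.30 (adjusted p = 0.262), -0.91 (adjusted p = 0.344) and -0.30 (adjusted p = 0.344). For genes called against virgins, the levels of the other dams are given beside those differences. Cish had 14.3 to 29.0 CPM in them (median 24.4) and a log2 difference of -0.018 (adjusted p = 0.967), beside 0.89 against virgins. Nr4a1 had 14.3 to 36.2 CPM (median 17.8) and -0.079 (adjusted p = 0.87), beside -1.09. Pomc had 69.7 to 124.6 CPM (median 101) and 0.076 (adjusted p = 0.905), beside -0.91. Prlh had 0 to 0.536 CPM (median 0.374) and was not tested there. A p that misses the threshold does not show that those levels were the same. Oxt had means of 188 and 206 CPM at PC14 and PC16, 278 and 361 CPM at PP1 and PP3 and levels of 330.4 to 384 CPM at PP10, and its log2 difference at PP10 was 0.50 (adjusted p = 0.388). Prl had means of 26.6 and 59.1 CPM at PP1 and PP3, above its PP10 values, with a log2 difference of -1.88 (adjusted p = 0.649), and Gh ran alike (-2.54, adjusted p = 0.553).

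Whether the PP10 difference belonged to the hypothalamus was tested as an interaction, the hypothalamus difference minus the mean of the differences in hippocampus, neocortex and cerebellum of the same 6 mice. The fit did not pair the regions of a mouse, and an alternative with the mouse as a block called 556 genes. Of the 14123 genes, 467 (3.31%) were called, 209 with a higher difference in the hypothalamus (1.48%) and 258 with a lower one (1.83%). The count ran from 49 without PP10 mouse 3 to 2859 without virgin mouse 3, and it was 64 and 163 without PP10 mouse 1 and 2 and 116 and 109 without virgin mouse 1 and 2, so the size of this set depends on single mice. By p value, Stac2 stood first among the higher ones. Its log2 fold change of PP10 against virgins was 1.11 in hypothalamus, against -0.041 in hippocampus, 0.10 in neocortex and 0.02 in cerebellum, and the interaction was 1.09 ± 0.13 SE, adjusted p = 0.000194. Plekhd1 had 1.01 in hypothalamus, against -0.41 in hippocampus, -0.65 in neocortex and -0.10 in cerebellum (1.40 ± 0.20 SE, adjusted p = 0.00156), and Vamp1 had 0.62 in hypothalamus, against -0.0096 in hippocampus, 0.089 in neocortex and 0.0001 in cerebellum (0.59 ± 0.12 SE, adjusted p = 0.00905). Inpp5j, Panx2, Trnp1 and Fbxo2 had interactions of 0.56 (adjusted p = 0.00169), 0.58 (adjusted p = 0.0024), 0.50 (adjusted p = 0.00276) and 0.45 (adjusted p = 0.00341). Nr4a2 had 0.85 in hypothalamus, against -0.063 in hippocampus, -0.47 in neocortex and -1.10 in cerebellum (1.40 ± 0.23 SE, adjusted p = 0.00386).

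**Figure D5:**
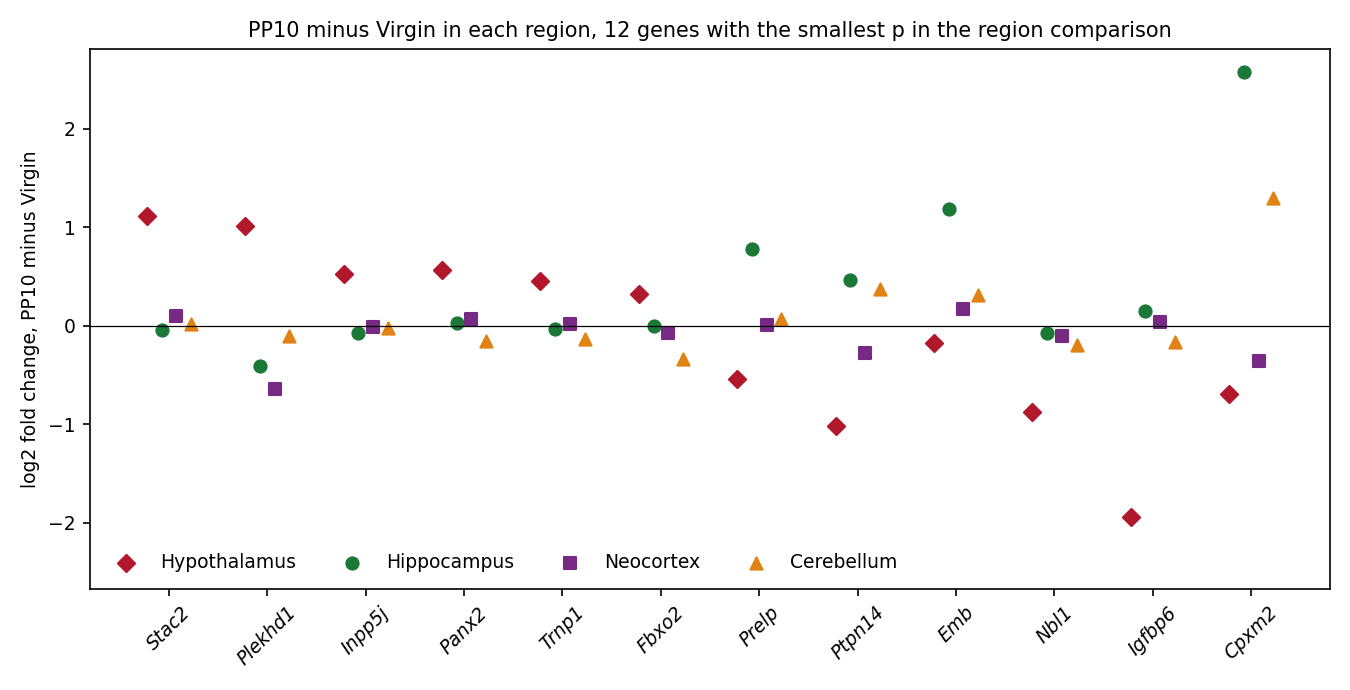
Log2 fold change of PP10 minus virgins (y axis) in each of 4 brain regions for the 12 genes (x axis) with the smallest p in the region comparison, 6 in each direction; red diamonds are hypothalamus, green circles hippocampus, purple squares neocortex and orange triangles cerebellum. Stac2 is at 1.11 in the hypothalamus and within 0.10 of 0 in the others, and Igfbp6 is at -1.94 in the hypothalamus and between -0.16 and 0.15 in the others.

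On the lower side, Prelp, Igfbp6 and Nbl1, secreted proteins that fibroblasts make, Ptpn14, Emb and Cpxm2 led. Igfbp6 had 12.2, 5.78 and 2.20 CPM at PP10, against 32.3, 24.3 and 21 CPM in virgins in the hypothalamus, a log2 fold change of -1.94 in hypothalamus, against 0.15 in hippocampus, 0.041 in neocortex and -0.16 in cerebellum, and an interaction of -1.96 ± 0.32 SE, adjusted p = 0.00341. Prelp had -0.54 in hypothalamus, against 0.78 in hippocampus, 0.0047 in neocortex and 0.064 in cerebellum (-0.83 ± 0.11 SE, adjusted p = 0.00113). The difference of these genes in the hypothalamus alone did not pass the test (adjusted p = 0.0664, 0.124 and 0.118 for Prelp, Igfbp6 and Nbl1). The meningeal marker sums were 2232, 1881 and 619 CPM at PP10, against 4162, 3640 and 2214 CPM in virgins. Igfbp6 had the same order of mice within each group. PP10 mouse 1 and virgin mouse 3, whose sums were alike, had 12.2 and 21 CPM of Igfbp6. The part of the meninges in these genes was not tested. Prlr had an interaction of -2.42 ± 0.46 SE, adjusted p = 0.00642, and it stood at 78.7 to 158 CPM at PP10, against 3.47 to 17.0 CPM in virgins, in the hippocampus and at 45.2 to 58.1 CPM at PP10, against 5.19 to 13.8 CPM in virgins, in the cerebellum (CPM of all counts). Prlr is also a marker of the choroid plexus, whose part in those regions was not tested.

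Several of the leading hypothalamic differences were not called in this comparison. Nr4a1 had a negative log2 fold change in each region (-1.09 in hypothalamus, against -1.01 in hippocampus, -1.40 in neocortex and -1.12 in cerebellum; interaction 0.088, adjusted p = 0.854), as did Dbp (-0.77 in hypothalamus, against -0.59 in hippocampus, -0.53 in neocortex and -1.03 in cerebellum; -0.048, adjusted p = 0.935). Dusp1 was an exception and was called, with a smaller decrease in the hypothalamus (-0.57 in hypothalamus, against -0.70 in hippocampus, -1.68 in neocortex and -1.59 in cerebellum; 0.75 ± 0.19 SE, adjusted p = 0.0288). Cish had 0.89 in hypothalamus, against 1.055 in hippocampus, -0.029 in neocortex and 0.60 in cerebellum (0.35, adjusted p = 0.351), and Ifit1 had -1.43 in hypothalamus, against -0.22 in hippocampus, -0.28 in neocortex and 0.29 in cerebellum (-1.36, adjusted p = 0.0622). For Npw and Prlh the interaction was fitted with the other genes but is not given, because it rests on counts at or near 0 in the other regions. Npw had 3, 2 and 0 counts over the 3 PP10 libraries and 1, 2 and 0 over the 3 virgin libraries of hippocampus, neocortex and cerebellum. Prlh had none in any of the 18.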

How the data were processed

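mRNA isolated from hypothalamus, hippocampus, neocortex and cerebellum from 18 mice was sequenced from unstranded libraries. The authors trimmed reads with Trimmomatic 0.32, aligned them to the mouse genome with TopHat2 2.0.8 and counted them per gene with easyRNASeq; the deposited counts are raw. FPKM values, deposited by the authors, came from Cufflinks 2.1.1 and were used here only as a filter, with blanks read as 0. Reads of overlapping genes on opposite strands cannot be told apart. Columns with no sample: none.

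Counts were fitted with edgeR 4.0.16 (quasi-likelihood, TMM, 1 coefficient per stage) over the 18 hypothalamus libraries. The fit held 14385 genes that reached an FPKM of 1 in all 3 mice of at least 1 stage. The test against virgins took the 14123 that did so at PP10 or in virgins. The test against the other dams took the 14298 that did so at any dam stage. Benjamini-Hochberg adjusted p under 0.05 was called. PP10 was set against virgins and against the mean of the other dams. The region comparison was fitted on the 24 libraries of the PP10 and virgin mice, without the mouse as a block. DESeq2 1.42.0 was an alternative, beside other scalings, filters, edgeR exact tests, the 6 libraries alone and each library left out. The fits were tested on simulated data. Labels do not say more than that replicates were separate mice. No libraries held identical values. Of 39179 gene IDs, 37607 had a symbol, and 8 list members were not matched. Positions are those of GENCODE M21 (GRCm38), and promoter sequences those of RefSeq. Ratios of summed counts carry exact 95% intervals that cover counting error only.

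For PP10 against virgins the calls are given in each direction. The text names, among called genes with a mean of at least 1 CPM and no overlap, the 12 largest changes in each direction, the 5 smallest p values in each direction, called members of 49 gene lists, and the 6 smallest p values in each direction in the comparisons with other dams and other regions. Further list members and markers that were not called are named as context and were chosen after their values were seen. A few genes that the rule gives are not reported here. The genes, lists and tests were chosen with earlier results of these data known. Samples of a mouse pair its regions by origin; the correlation of their deviations from the group means ran from -0.085 to 0.172 over 18 pairs.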

Additional observations from a re-analysis of the deposited data

Results flagged for a closer look

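The difference between PP10 dams and virgins in the hypothalamus differed from the mean of the differences in hippocampus, neocortex and cerebellum, by the test of that interaction in edgeR's quasi-likelihood fit, for 53 of the genes the text names. Values are log2 differences, hypothalamus minus the mean of the other regions, at an adjusted p under 0.05. Of the 32 positive ones, those of at least 1 were C130021I20Rik (3.43), Barhl1 (3.005), Gm6977 (2.21), Crhbp (1.94), Lmx1b (1.69), Ntsr1 (1.42), Cpne9 (1.42), Nr4a2 (1.40), Plekhd1 (1.40), Kcnab3 (1.30), Ebf3 (1.27) and Stac2 (1.09), and those under 1 were Nrn1 (0.87), Dusp1 (0.75), Syt2 (0.70), Vamp1 (0.59), Panx2 (0.58), Syndig1l (0.57), Cox6a1 (0.56), Inpp5j (0.56), Trnp1 (0.50), Kcnn2 (0.46), Fbxo2 (0.45), Pde1b (0.43), Nefh (0.42), Nefm (0.42), Ntsr2 (0.41), Grin2c (0.41), Kcnab2 (0.37), Pou3f3 (0.35), Snap25 (0.25) and Cpe (0.21). Barhl1 and Cox6a1 were no longer called with the mouse as a block (adjusted p = 0.0516 and 0.0512). The 21 negative ones were Rasgrf2 (-0.42), Grik3 (-0.45), Per3 (-0.47), Vasn (-0.49), Abca1 (-0.60), Emb (-0.73), Nbl1 (-0.75), Prelp (-0.83), Zic1 (-0.89), Gm26809 (-0.92), Zic5 (-1.12), Ptpn14 (-1.21), BC067074 (-1.41), Gm12840 (-1.55), Mdfic (-1.74), Cpxm2 (-1.87), Igfbp6 (-1.96), Bmp3 (-2.29), Irs4 (-2.37), Prlr (-2.42) and Epcam (-6.50). For many of these genes the hypothalamus difference given above was smaller in size than the value here. Among them were C130021I20Rik, Barhl1, Gm6977, Crhbp, Lmx1b, Ntsr1, Nr4a2, Plekhd1, Cox6a1, Irs4, Bmp3, Mdfic, BC067074, Prlr and Epcam. The rest of each such value came from a difference of opposite sign in the mean of the other regions. Dusp1 fell in the hypothalamus too, and its value is positive because the mean of the other regions fell more. Levels of those genes in the other regions are not given here. Over all genes the count of interaction calls ran from 49 without PP10 mouse 3 to 2859 without virgin mouse 3. The marker sums of the meninges differed between the hypothalamus libraries, as given above, and their part in these values was not tested.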

How the results depend on the processing

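With 3 mice a group and most differences small, the number of genes called depends on single mice. For PP10 against virgins (546 higher and 311 lower) the higher calls ran from 126 without PP10 mouse 3 to 679 without virgin mouse 3, and the lower ones from 35 without PP10 mouse 3 to 392 without PC14 mouse 1. There were 467 calls in a fit of the 6 libraries alone and 51, of which 39 higher and 12 lower, without PP10 mouse 3 and virgin mouse 1 together, an alternative chosen after seeing the data. DESeq2 size factors, TMM factors over all 72 libraries, the DESeq2 Wald test, filterByExpr, no filter and edgeR exact tests gave 797 to 1124, with 504 higher and 620 lower in the exact test of the 6 libraries and 234 higher and 233 lower in the fit of those 6 alone. Against the other dams, 1 gene was called in every alternative except the DESeq2 Wald test, which called 4.

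For the difference between regions (467 genes), no filter gave 843, and without PP10 mouse 1, 2 and 3 there were 64, 163 and 49, and without virgin mouse 1, 2 and 3 116, 109 and 2859. The replicate block, in which the mouse pairs its 4 regions, gave 556, and 55 of the 57 genes that the naming rule gives and that were called kept their call. Barhl1 (3.001, adjusted p = 0.0516) and Cox6a1 (0.55, adjusted p = 0.0512) lost it. Between PP10 and virgins within the hypothalamus no paired analysis was possible because each library is a different mouse and the numbers only name them.

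Against virgins, Oxt changed sign, at -0.0303 without PP10 mouse 3, -0.01 without virgin mouse 1 and -0.078 without PP10 mouse 3 and virgin mouse 1 together, within a range of -0.0303 to 0.10 when 1 library was left out. Kcne1l was 0.027 without virgin mouse 1 and ran from -0.12 to 0.027. Neither was called, and the cause was not tested. Of the 164 called genes that the naming rule gives, 97 kept their call in every alternative except those that leave out a library. Low counts limit Npw, Prlh, Epcam and Krt8.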
